A study of Mus musculus with 7 samples.

Results

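The cells described here are the endothelial cells of the mouse pancreas after caerulein, taken as every cell of the caerulein table whose deposited cluster name holds the word endothelial. There were 836 of them among 22177 cells of 2 caerulein mice, and among 58473 cells of 7 mice in the whole series. Mouse 1 gave 560 of 15138 cells and mouse 2 gave 276 of 7039. The reference was the 2334 endothelial cells of 2 wild-type (WT) mice, 1122 of 4327 and 1212 of 6326 cells, which the authors had placed in 2 clusters, Endothelial_1 and Endothelial_2. All gene tests compared mice, with UMIs (unique molecular identifiers, 1 per captured RNA molecule) summed over the endothelial cells of each mouse. Endothelial_2 held 690 cells of WT mouse 1 and 361 of WT mouse 2, at medians of 323.5 and 315 UMIs per cell. Endothelial_1 had medians of 3528 and 2016 UMIs.

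Droplet single-cell RNA was measured in whole pancreas, 1 library per mouse. All mice were labelled C57BL/6 and 2 months old. The caerulein mice were of wild-type genotype and received caerulein, an analogue of the gut hormone cholecystokinin that causes mild acute pancreatitis, at 100 µg/kg in 7 injections a day on 2 days, and the pancreas was taken on day 4. The WT mice were labelled with doxycycline alone, at 1 mg/ml of drinking water for 7 days, because they served as controls for the reprogrammable i4F mice of the same series. The labels name caerulein alone for the caerulein mice and do not say whether these also drank doxycycline. If they did not, caerulein and the lack of doxycycline cannot be told apart in any comparison between them and the WT mice. The 3 i4F mice (genotype i4F-B, a doxycycline-inducible transgene for the Yamanaka reprogramming factors, given doxycycline like the WT mice) entered the fits as a group of their own, and so bore on the estimate of the spread between mice and on which genes passed the filter on low counts. WT mouse 1 and the i4F mice belonged to the library series AL of the sample titles, and WT mouse 2 and both caerulein mice to the series AM. With 2 mice per group, an exact permutation test of a share has a smallest p of 0.333, so that shares are given with no claim of significance.

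Endothelial cells line blood and lymphatic vessels. Pancreatic capillary endothelium is fenestrated and exchanges hormones and nutrients, whereas the endothelium of post-capillary venules is the main site where leukocytes leave the blood, through selectins, integrin ligands and bound chemokines. Endothelial cells also respond to interferon and to inflammatory cytokines, carry MHC class I, and divide when vessels are repaired.

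2 features of the libraries bore on the gene results. The first was RNA of macrophages in cells called endothelial. Counted over 10 macrophage markers, 89 of 560 caerulein cells (15.9%) and 18 of 276 (6.52%) carried at least 10 macrophage UMIs, against 1 and 4 WT cells. These 107 macrophage-rich cells held 36.6% and 18.2% of the endothelial UMIs of the caerulein mice. They were large, with medians of 4745 and 3245.5 UMIs against 1138 and 801 in the other endothelial cells, and their median macrophage-marker count was 99 and 91 UMIs against 0 and 0. Their median count over 4 endothelial markers was 8 and 5 UMIs, close to the 6 and 5 of the others, and 1 of the 107 had no endothelial marker UMI. Scrublet, a doublet caller, marked 42 of the 89 and 13 of the 18, against 20 of 471 and 8 of 258 other endothelial cells of the caerulein mice. Macrophages made up 50.3% and 40.3% of all cells of the caerulein mice and 2.40% and 8.13% of the WT mice.

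**Figure D1:**
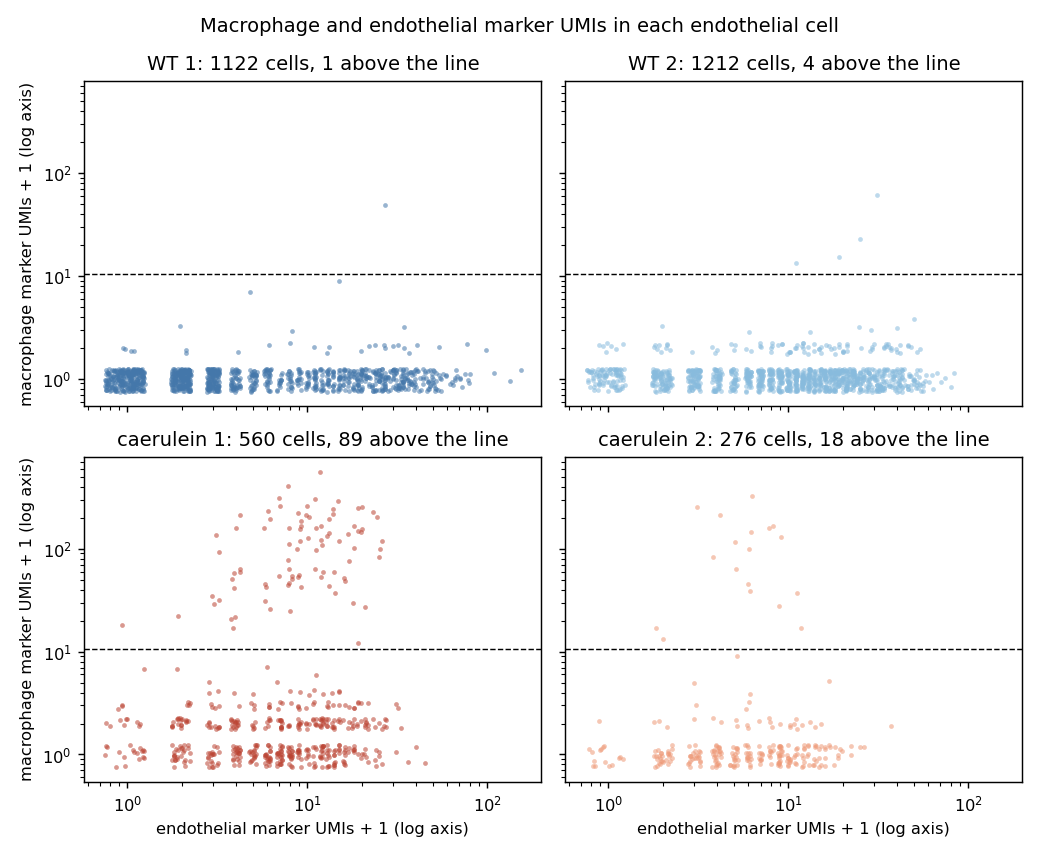
Each point is 1 endothelial cell of a WT or caerulein mouse, with the UMIs of 4 endothelial markers plus 1 on the horizontal and of 10 macrophage markers plus 1 on the vertical axis, both logarithmic and with a small random shift. The dashed line marks 10 macrophage UMIs, and 89 and 18 caerulein cells against 1 and 4 WT cells lie above it, in the caerulein mice at median endothelial marker counts of 8 and 5 UMIs against 6 and 5 in the cells below it.

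The second feature was i4F mouse 3, whose macrophages made up 6.30% of cells against 35.6% and 39.6% in the other i4F mice, and whose endothelial cells carried acinar RNA at 5174 CPM (UMIs of a gene or list per 1e+06 UMIs of the sum) over 33 acinar markers against 168 and 529. Results are therefore given from a fit of all cells of the 7 mice, called the full fit, and from a fit without macrophage-rich cells and without i4F mouse 3, called the restricted fit, which was chosen after seeing the data. In the full fit, 8153 genes were tested, and 289 (3.54%) were higher and 46 (0.564%) lower after caerulein at an adjusted p of 0.05 (edgeR quasi-likelihood test, Benjamini-Hochberg adjustment over all genes tested). In the restricted fit, 7508 genes were tested, and 219 (2.92%) were higher and 235 (3.13%) lower. Of the 289 higher genes, 103 were also called in the restricted fit (35.6% of the first list and 47.0% of the second), and of the 46 lower genes 44 were (95.7% and 18.7%). In both caerulein mice, macrophage-rich cells held over 50% of the UMIs of 187 of the 289 higher genes and of 0 of the 46 lower ones, against 284 of all 8153 genes (3.48%). When only the macrophage-rich cells were left out and i4F mouse 3 was kept, 5 genes (0.0623%) were higher, among them Cmah, Gm2663, Lyve1 and Reln, and 0 (0%) were lower by edgeR, with 671 and 512 genes at an unadjusted p under 0.05. The calls of the restricted fit thus depended on leaving out i4F mouse 3. Without i4F mouse 3 but with all cells, 582 (6.8%) and 363 (4.24%) of 8560 genes were called. With neither macrophage-rich cells nor any i4F mouse, 124 (1.34%) and 115 (1.24%) of 9273 genes were called. Caerulein mouse 1 held most of the endothelial UMIs of its group, 1192086 against 315054, and with it left out the full fit called 23 higher and 0 lower genes by edgeR, with 453 and 326 at an unadjusted p under 0.05. With caerulein mouse 2 left out it called 212 higher and 6 lower genes.

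Markers of other cells moved with the condition in the endothelial sums. The 10 macrophage markers summed to 44.4 and 86.5 CPM in WT and 9332 and 6291 CPM in caerulein mice, and to 21.5 and 43.0 against 396 and 198 CPM without macrophage-rich cells. Neutrophil markers stood at 0.954 and 1.22 against 143 and 63.5 CPM, with Ly6g at 0 in both caerulein mice. Stellate cell markers stood at 205 and 469 against 1389 and 473 CPM. Acinar markers were at 2078 and 1622 CPM in WT and 139 and 85.7 CPM in caerulein mice, where 23 of the 33 were at 0 in both. Of the lymphoid lists, 6 of 8 T and NK markers and 3 of 5 B cell markers were at 0 in both caerulein mice. In an alternative chosen after seeing the data, macrophage, stellate and acinar RNA was subtracted from the sums, which took the median log2 fold change of the endothelial identity list from -0.30 to 0.01, of the chemokine list from 1.28 to -0.79 and of the interferon-stimulated list from -2.23 to -2.01. The part of neutrophil and pericyte RNA in the gene results was not tested.

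The 4 markers that define endothelium were present in every WT and caerulein mouse, but the cells under this label also carried RNA of other types. Sub-clusters led by macrophage, acinar, stellate or pericyte genes held 43.7% of the UMIs of the caerulein cells. Pecam1, an adhesion molecule of endothelial junctions, stood at 1515 and 1482 CPM in WT and 1166 and 1267 CPM in caerulein mice (log2 fold change -0.30 ± 0.25 SE, adjusted p = 0.531). Cdh5, which encodes VE-cadherin, stood at 904 and 781 against 569 and 784 CPM (adjusted p = 0.526). The VEGF receptor gene Kdr had 1460 and 1823 against 694 and 1100 CPM (log2 fold change -0.88 ± 0.36, adjusted p = 0.218). Plvap, the diaphragm protein of fenestrated capillaries, had 1274 and 2701 against 1784 and 2157 CPM (adjusted p = 0.993). For none of the 4 did the difference pass the test in either fit. Without macrophage-rich cells the 4 markers summed to 5483 and 6597 CPM in WT and to 4821 and 6202 CPM in caerulein mice, so that the groups overlapped.

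Endothelial cells were a smaller part of the captured cells after caerulein. They made up 25.9% (95% exact binomial interval 24.6 to 27.3) and 19.2% (18.2 to 20.2) of all cells in WT mice, and 3.70% (3.40 to 4.01) and 3.92% (3.48 to 4.40) in caerulein mice. The means, 22.5% and 3.81%, differed by -18.7 percentage points, 5.92-fold (exact two-sided permutation p = 0.333). Part of the denominator was immune cells, which were 5.15% and 11.8% of WT and 56.9% and 45.9% of caerulein cells. Among non-immune cells, the endothelial share was 27.3% and 21.7% in WT and 8.58% and 7.25% in caerulein mice, a difference in means of -16.6 points or 3.10-fold (exact permutation p = 0.333). Both caerulein mice lay below both WT mice on either denominator. Intervals cover counting error only, and fewer endothelial cells, more cells of other kinds and a lower yield from dissociation cannot be told apart.

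**Figure D2:**
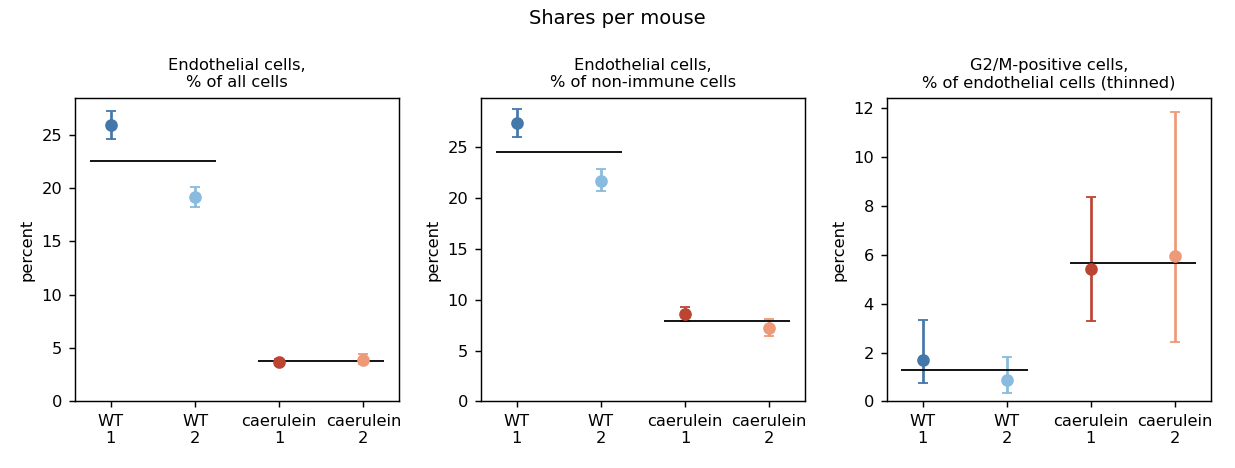
Points are the shares of single mice in percent, bars their 95% exact binomial intervals, and horizontal lines the group means, for endothelial cells of all cells (left), of non-immune cells (middle), and for G2/M-positive cells among endothelial cells thinned to 1000 UMIs (right). The endothelial share is 25.9% and 19.2% in WT and 3.70% and 3.92% in caerulein mice, and the G2/M-positive share is 1.70% and 0.884% against 5.43% and 5.93%, a direction that turned with 1 UMI as the limit.

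Of 26 gene lists covering endothelial identity, vessel type, inflammation, barrier, matrix, division and stress, the interferon-stimulated genes stood farthest from the median of all genes on the lower side, and the G2/M genes farthest on the higher side. Of the 15 G2/M genes, however, 10 were tested. Members near 0 CPM in WT could pass the filter on low counts only through a group where they were higher. The filter thus favoured increases in this list. The median log2 fold change over all genes tested was 0.00 in the full and -0.03 in the restricted fit. List members are described against these medians and against the shares of all genes called.

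**Figure D3:**
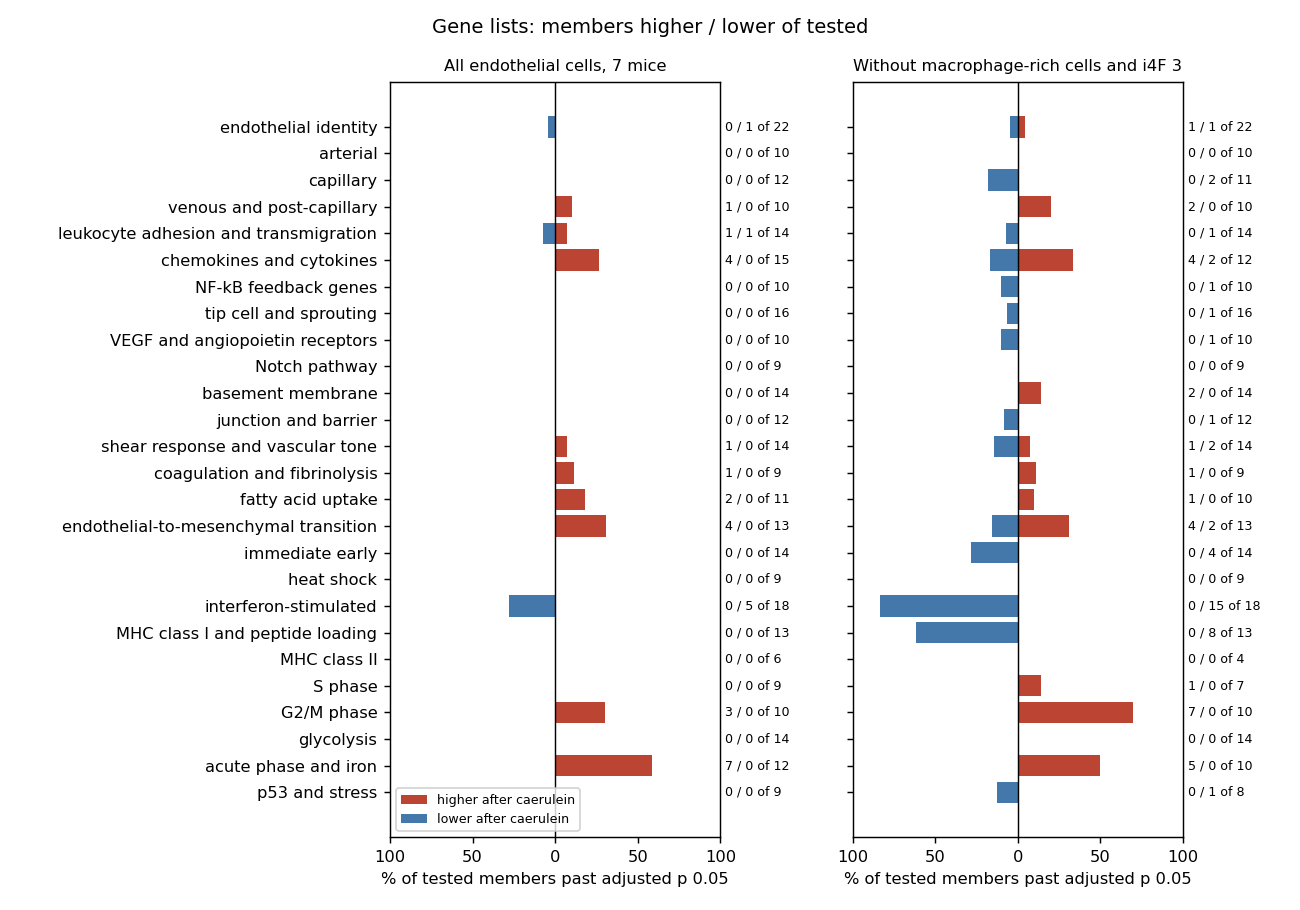
Bars give, for each of 26 gene lists, the percentage of tested members past an adjusted p of 0.05 that were higher (red, to the right) or lower (blue, to the left) after caerulein, in the full fit (left panel) and the restricted fit (right panel), with the counts of higher and lower members beside each bar. Interferon-stimulated genes have 0 higher and 5 lower of 18 in the full fit and 0 higher and 15 lower in the restricted fit.

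Interferon-stimulated genes were lower after caerulein. All 18 members were tested. In the full fit, 5 were lower and 0 higher, with a median log2 fold change of -2.23, and in the restricted fit 15 were lower and 0 higher, with a median of -2.29. In the restricted fit, Ifitm3 and Oasl2 were among the members not called. Without the macrophage-rich cells but with i4F mouse 3, the median was -2.27 and 0 of the 18 passed. With WT and caerulein mice alone, 14 were lower, and within the AM library series alone, which held 1 WT mouse, 15 were lower. With the library series as a term, 2 of the 18 passed. Leaving out single mice left 0 lower without caerulein mouse 1, 1 without caerulein mouse 2, 2 without WT mouse 1, 3 without WT mouse 2, 14 without i4F mouse 3 and 5 to 7 without another i4F mouse, with medians from -2.50 to -2.11.

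Isg15, a ubiquitin-like protein conjugated to other proteins after interferon, stood at 730 and 908 CPM in WT and 177 and 257 CPM in caerulein mice. It fell 3.80-fold (log2 fold change -1.93 ± 0.40, adjusted p = 0.033), and in the restricted fit by 2.00 ± 0.32 on the log2 scale (adjusted p = 0.012). Ifit3, an antiviral RNA-binding family member, had 174 and 149 against 18.7 and 18.8 CPM and fell 8.59-fold (log2 fold change -3.10 ± 0.50, adjusted p = 0.011). In both genes the highest caerulein mouse lay well below the lowest WT mouse. Rsad2, which encodes the antiviral enzyme viperin, had 450 and 375 against 79.4 and 97.2 CPM (log2 fold change -2.24 ± 0.37, adjusted p = 0.0123). The guanylate-binding protein gene Gbp3 had 110 and 95.5 against 18.7 and 15.7 CPM (-2.53 ± 0.35, adjusted p = 0.00609). Irf7, a transcription factor that amplifies the interferon response, had 221 and 268 against 63.5 and 72.1 CPM (-1.86 ± 0.36, adjusted p = 0.0233). These 5 were the members past the threshold in the full fit.

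Several members were lower by as much and passed in the restricted fit alone. Irf1, a transcription factor induced by interferon gamma, stood at 720 and 907 against 74.7 and 116 CPM (full fit -3.12, adjusted p = 0.154, restricted fit -2.94 ± 0.29, adjusted p = 0.00278). The immunity-related GTPase gene Iigp1 had 1615 and 1510 against 131 and 122 CPM (full fit adjusted p = 0.0927, restricted fit -3.45 ± 0.26, adjusted p = 0.00253). Ifit1 had 338 and 249 against 28.9 and 43.9 CPM (full fit adjusted p = 0.093, restricted fit adjusted p = 0.0114). For these 3 genes both caerulein mice again lay far below both WT mice, although the full fit did not call them. Ifitm3 was the exception in the list, with 4119 and 5278 against 5187 and 4326 CPM and a log2 fold change of 0.02 (adjusted p = 0.987). Some Ifit and Gbp genes have close paralogues among which the counting may have split reads.

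Outside the list, the genes with the largest falls of the full fit included others induced by interferon. Rtp4 had 294 and 231 against 46.7 and 47.0 CPM (log2 fold change -2.48 ± 0.36, adjusted p = 0.00623). Usp18, which removes Isg15 from its targets, had 61.0 and 59.5 against 11.2 and 15.7 CPM (-2.25 ± 0.38, adjusted p = 0.0129). Epha4, a receptor for ephrins, had 96.9 and 108 against 21.5 and 21.9 CPM (-2.24 ± 0.40, adjusted p = 0.0158). Cyp1a1, a target of the aryl hydrocarbon receptor, had 40.4 and 89.6 against 0 and 3.14 CPM (adjusted p = 0.0403).

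The promoters of these genes share letters. The interferon-stimulated response element is bound by interferon regulatory factors, and its core letters, GAAA, any 2 bases and GAAA again, a motif chosen after the values were seen, were searched on both strands from 250 bases before to 50 bases after each RefSeq start site (GRCm38.p6). They were found for 11 of the 15 list members with a promoter in the table (73.3%), against 1079 of 27025 RefSeq genes (3.99%) and 260 of 6337 tested genes with a promoter (4.10%). Among genes of the restricted fit, 37 of 191 lower genes (19.4%) and 7 of 155 higher genes (4.52%) held them. Irf7 was among the members with no match, which says only that these letters are not in this window. The windows below are 28 bases of the gene's own strand, read 5′ to 3′ with the match in capitals, and are shown for members that lie among the strongest differences and carry the pattern in either orientation.
Isg15: taggaaaagGAAACCGAAAcagaaaata
Ifit1: aggcttcagTTTCACTTTCcagtctcag
Ifit3: agtggtaagTTTCACTTTCctcttctgg
Gbp3: aggacacagTTTCAGTTTCtatttccca
Rsad2: tggtccaacTTTCATTTTCagaaaacag
Igtp: ctaggaactGAAACTGAAAgctgttcgg
They lie at chr4:156200872-156200899 (minus strand, 72 bases before the start site) for Isg15, chr19:34640776-34640803 (plus, 104 bases) for Ifit1 and chr19:34583364-34583391 (plus, 156 bases) for Ifit3. Those of Gbp3, Rsad2 and Igtp lie at chr3:142559990-142560017 (plus, 45 bases), chr12:26456554-26456581 (minus, 120 bases) and chr11:58199513-58199540 (plus, 34 bases). In Isg15, Ifit1, Ifit3 and Gbp3 the letters occur more than once in the promoter, in Isg15 and Gbp3 as overlapping matches, and the printed match is one of them. A match is a description of the sequence and not a measured binding site.

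MHC class I and peptide loading genes went the same way in sign. In the full fit 0 of 13 tested members passed, with a median log2 fold change of -0.93, and in the restricted fit 8 were lower and 0 higher, with a median of -0.94 and all 13 below 0. H2-Q4, a non-classical class I gene, had 637 and 527 against 119 and 125 CPM (restricted fit -2.18 ± 0.23, adjusted p = 0.00318, full fit adjusted p = 0.0929). Tap1, a chain of the peptide transporter, had 131 and 130 against 42 and 34.5 CPM (restricted fit -1.79 ± 0.27, adjusted p = 0.00948). The others called were Tap2, Tapbp, H2-T23 and the immunoproteasome genes Psmb8, Psmb9 and Psmb10, at restricted log2 fold changes from -1.46 to -0.89. The classical chain gene H2-K1 had 3746 and 2728 against 1750 and 2013 CPM and did not pass in either fit (adjusted p = 0.329 and 0.15). Class I genes are near copies of each other, and their counts may be split between them. Of 6 MHC class II genes tested in the full fit and 4 in the restricted fit, 0 passed. Their median turned from 0.27 in the full fit to -1.28 in the restricted fit, and in the full fit it was 1.38 without WT mouse 1, -0.33 without WT mouse 2, 0.75 without caerulein mouse 1 and -0.26 without caerulein mouse 2.

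**Figure D4:**
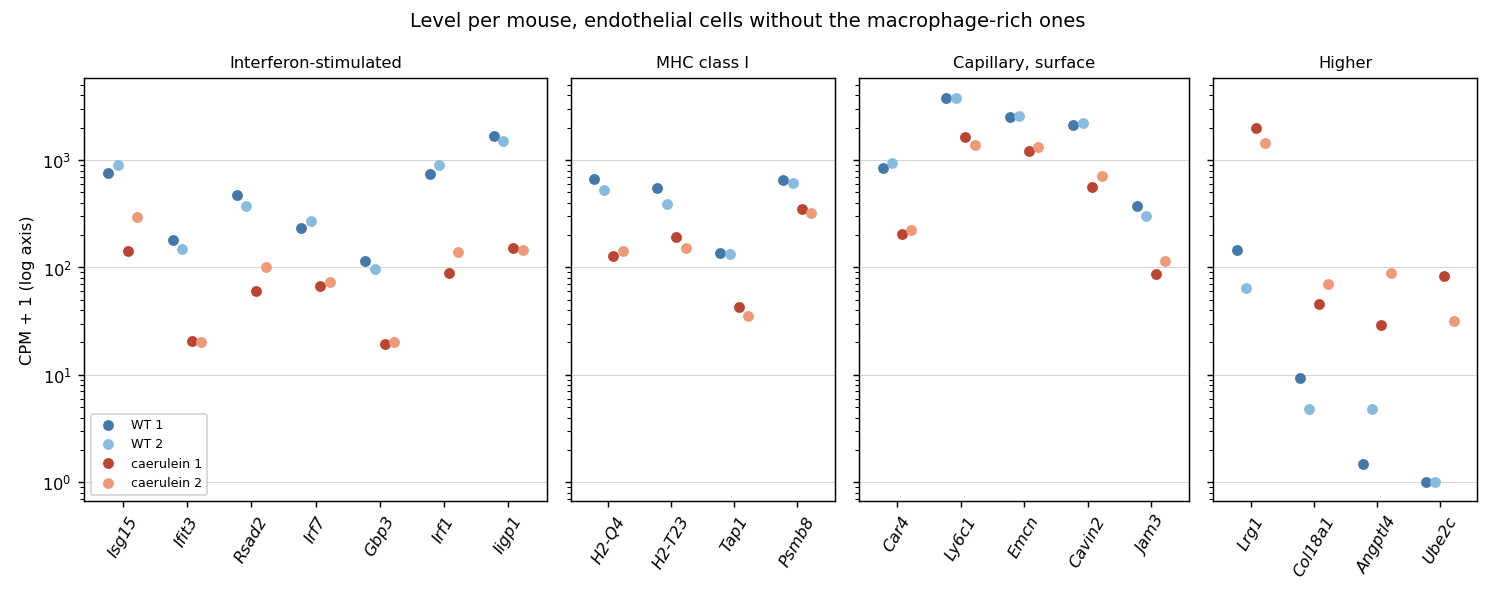
Points give the level of a gene in 1 mouse as CPM + 1 on a logarithmic axis, in endothelial sums without macrophage-rich cells, for interferon-stimulated, MHC class I, and capillary or surface genes and for genes that were higher after caerulein. In the first 3 panels both caerulein mice (red) lie below both WT mice (blue) for every gene drawn, and in the last panel they lie above, with Ube2c at 0 CPM in both WT mice.

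Capillary genes were lower in part. Of 12 capillary genes tested in the full fit 0 passed (median log2 fold change -0.76), and in the restricted fit 2 of 11 were lower. Car4, a carbonic anhydrase on the capillary surface, had 811 and 945 against 154 and 201 CPM (full fit -2.32 ± 0.64, adjusted p = 0.0845, restricted fit -2.09 ± 0.20, adjusted p = 0.00278). The surface antigen gene Ly6c1 had 3621 and 3809 against 1361 and 1194 CPM (restricted fit -1.34 ± 0.24, adjusted p = 0.0153). For both, the WT mice were close together and far above the caerulein mice. Other capillary genes did not pass: Gpihbp1, which anchors lipoprotein lipase, had 1546 and 2173 against 1291 and 1680 CPM (adjusted p = 0.646), and Fabp4, a fatty acid carrier, 13647 and 17243 against 9703 and 10847 CPM (adjusted p = 0.244).

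Among 22 endothelial identity genes, 1, Emcn, passed in the full fit. With the library series as a term, with doublets removed or with only macrophage-rich cells left out, 0 passed. Without i4F mouse 1 or without i4F mouse 2, 0 passed as well. Emcn, a sialomucin of capillary and venous surfaces, had 2422 and 2573 against 974 and 1179 CPM and fell 2.32-fold (log2 fold change -1.22 ± 0.25, adjusted p = 0.0297, restricted fit -1.01 ± 0.20, adjusted p = 0.0226). In the restricted fit Ecscr, a receptor of endothelial migration, was higher at 520 and 522 against 772 and 903 CPM (0.86 ± 0.19, adjusted p = 0.0332). The list's median was -0.30 in the full and -0.10 in the restricted fit, and -0.15 in the full fit without caerulein mouse 1. Of 10 arterial genes and 9 Notch pathway genes tested, 0 passed in either fit. The arterial median was -0.68 in the full fit, with all 10 below 0, and -0.39 in the restricted fit, with 7 of 10 below 0. The Notch median was -0.23 and 0.02. Among the arterial genes, values nearly the same in both groups were those of Gja4, the gap junction gene connexin 37, with 88 and 106 against 86.8 and 97.2 CPM (adjusted p = 0.906).

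Of the venous genes, Lrg1 was higher in both fits. Lrg1, a secreted glycoprotein of venular endothelium and of the acute phase that modifies TGF-beta signalling, had 139 and 63.2 CPM in WT and 1661 and 1223 CPM in caerulein mice. It rose 14.3-fold (log2 fold change 3.84 ± 0.64, adjusted p = 0.0128), and by 4.03 ± 0.40 on the log2 scale in the restricted fit (adjusted p = 0.00278). Vwa1, a matrix protein, had 85.3 and 229 against 529 and 451 CPM and passed in the restricted fit alone (1.86 ± 0.42, adjusted p = 0.0358). Of the 10 venous genes, 1 was higher in the full fit and 2 in the restricted fit, with a median of 0.53 in the full fit. The median rested on the WT mice, at 1.22 with 1 called without WT mouse 1 and 0.12 with 0 called without WT mouse 2. It was 1.22 in the AM series alone, which held 1 WT mouse. Without the WT cluster Endothelial_2 it was 1.43, and 4 of the 10 were higher. The medians of all genes in these settings were 0.00 and -0.01. Without caerulein mouse 1, 0 of the 10 were called. Ackr1, the chemokine receptor that marks post-capillary venules, had 130 and 9.21 against 106 and 90.9 CPM (adjusted p = 0.801), so that the WT mice differed from each other by more than the groups did.

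Selectins and integrin ligands that capture leukocytes did not pass the test in the full fit. The selectin gene Selp had 225 and 68.7 against 196 and 160 CPM (adjusted p = 0.819) and Sele 29.6 and 25.1 against 64.4 and 43.9 CPM (adjusted p = 0.188). The integrin ligand genes Icam1 and Vcam1 had 187 and 389 against 193 and 144 CPM (adjusted p = 0.49), and 123 and 44.4 against 67.2 and 122 CPM (adjusted p = 0.945). The caerulein mice lay within or near the range of the WT mice for Selp, Icam1 and Vcam1, and both lay above it for Sele. Of 14 adhesion and transmigration genes tested, 1 was higher and 1 lower in the full fit, and 0 and 1 in the restricted fit. The list's median was -0.24 in the full fit, -0.18 in the AM series alone and -0.19 without the WT cluster Endothelial_2. It was -0.21 without WT mouse 1 and -0.24 without caerulein mouse 1. With the library series as a term, with doublets removed or without i4F mouse 2, 0 were called. Without the WT cluster Endothelial_2, 3 of 14 were higher and 1 was lower. Jam3, a junctional adhesion molecule, had 363 and 302 against 68.2 and 97.2 CPM (log2 fold change -2.04 ± 0.43, adjusted p = 0.0331, restricted fit -1.81 ± 0.31, adjusted p = 0.0145). Cd44, a hyaluronan receptor, was higher in the full fit (adjusted p = 0.0445) with 83.1% and 88.9% of its caerulein UMIs in macrophage-rich cells, and not in the restricted fit (0.79, adjusted p = 0.529).

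The UMIs of some chemokines lay mostly in the macrophage-rich cells, and those of others did not. In the full fit 4 of 15 members were higher and 0 lower (median log2 fold change 1.28). The direction of the median rested on caerulein mouse 1, without which 0 were called and the median was -0.44. Without WT mouse 1, 0 were called with a median of 0.57, and without i4F mouse 3, 6 of 14 were higher and 2 lower with a median of 0.79. With doublets removed, 4 of 14 were higher and the median was -0.28, and after subtraction of macrophage, stellate and acinar RNA 0 of 13 were called. Cxcl2, a neutrophil attractant, had 17.1 and 52.3 against 3812 and 1003 CPM (6.11 ± 0.96, adjusted p = 0.00943), and 94.4% and 85.0% of its caerulein UMIs were in macrophage-rich cells. Ccl2, which draws monocytes, had 6.28 and 26.0 against 1006 and 216 CPM (adjusted p = 0.0167), with 82.2% and 72.5% of UMIs in those cells. Without them and without i4F mouse 3, Cxcl2 was still higher by 3.17 ± 0.50 and Ccl2 by 3.50 ± 0.68 on the log2 scale (adjusted p = 0.0114 and 0.0214). Of the caerulein UMIs of Ccl2, however, 78.6% lay in the sub-cluster with macrophage genes and 14.1% in the 17 cells with stellate genes, most of which the restricted fit keeps. For Ccl7, 20.9% lay in these cells with stellate genes and 95.9% in all sub-clusters led by macrophage, acinar, stellate or pericyte genes. Csf3, the granulocyte colony-stimulating factor gene, had 5.39 and 5.44 against 68.2 and 40.8 CPM (3.37 ± 0.57, adjusted p = 0.0131, restricted fit 2.97 ± 0.65, adjusted p = 0.0322). Of its caerulein UMIs, 50% lay in the sub-cluster with macrophage genes and 40.7% in the one with venous genes. In the restricted fit 4 of 12 members were higher, namely Cxcl2, Ccl2, Csf3 and Ccl7, and 2 were lower. Interferon-responsive genes made up the lower ones. Cxcl10, a T and NK cell attractant, had 149 and 134 against 23.8 and 38.3 CPM without macrophage-rich cells (-2.30 ± 0.29, adjusted p = 0.00473), whereas with them it had 144 and 133 against 82.2 and 72.1 CPM (adjusted p = 0.41). Tnfsf10, which encodes the death ligand TRAIL, had 305 and 286 against 77.5 and 107 CPM (restricted fit -1.49 ± 0.24, adjusted p = 0.0119). Macrophage-rich cells held 18.1% and 2.94% of the caerulein UMIs of Tnfsf10, and 18.4% and 3.33% of those of Cxcl12, which did not pass in either fit (adjusted p = 0.49 and 0.254). Of 10 NF-kB feedback genes, 0 passed in the full fit and 1, Nfkbiz, was lower in the restricted fit (-1.02 ± 0.25, adjusted p = 0.0473).

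Of 14 shear response and vessel tone genes, 1 was higher in the full fit, and 1 was higher and 2 were lower in the restricted fit. The lower ones were Cavin2 and Cav1. Cavin2, a coat protein of caveolae, had 2050 and 2222 against 447 and 602 CPM (full fit adjusted p = 0.131, restricted fit -1.79 ± 0.22, adjusted p = 0.00453), and Cav1, their main membrane protein, 589 and 582 against 227 and 354 CPM (restricted fit -0.90, adjusted p = 0.0465). Cavin1, another caveolar coat gene, had 269 and 252 against 135 and 163 CPM and did not pass in either fit (adjusted p = 0.159 and 0.142). Ptgs2, the inducible cyclooxygenase, had 0 and 0.837 against 64.4 and 25.1 CPM (adjusted p = 0.00283), with 79.7% and 62.5% of its caerulein UMIs in macrophage-rich cells. The shear-responsive factors Klf2 and Klf4 did not pass, with 255 and 228 against 134 and 166 CPM for Klf2 (adjusted p = 0.518).

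Matrix, sprouting and growth factor receptor genes mostly did not pass. In the restricted fit 2 of 14 basement membrane genes were higher, Col18a1 at 8.08 and 3.77 against 40.1 and 59.6 CPM (3.12 ± 0.46, adjusted p = 0.00903, full fit adjusted p = 0.0527) and the laminin gene Lamb1 at 71.4 and 65.3 against 167 and 176 CPM (1.55 ± 0.23, adjusted p = 0.00923). Col18a1 encodes the collagen from which endostatin is cut. Col4a1, the common collagen of the basement membrane, had 1312 and 1271 against 1427 and 1361 CPM (adjusted p = 0.88). Nrp1, a co-receptor for VEGF, had 1025 and 1262 against 355 and 508 CPM (full fit adjusted p = 0.079, restricted fit -1.33 ± 0.26, adjusted p = 0.0205) and was the 1 called member of the tip cell list of 16 and of the receptor list of 10. The tip cell gene Esm1 had 363 and 294 against 82.2 and 122 CPM, lower in both caerulein mice, and did not pass in either fit (adjusted p = 0.133 and 0.109). Of 12 junction genes tested, 0 passed in the full fit and 1, Afdn, was lower in the restricted fit (-0.91, adjusted p = 0.0481).

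The acute phase and iron list had 7 of 12 members higher in the full fit (median log2 fold change 1.53) and 5 of 10 in the restricted fit, and its members differed in where their UMIs lay. In the full fit 0 were called without caerulein mouse 1 and 2 without either WT mouse. The ferritin genes Fth1 and Ftl1, which store iron, passed in the full fit, with Fth1 at 3000 and 3177 against 10230 and 6627 CPM (1.45, adjusted p = 0.0227), and did not pass in the restricted fit (0.29 and -0.12, adjusted p = 0.481 and 0.802). Hmox1, the heme-degrading enzyme, had 25.1 and 34.3 against 291 and 201 CPM (3.06 ± 0.43, adjusted p = 0.00609) and passed in the restricted fit with a smaller difference (1.53 ± 0.30, adjusted p = 0.0217). Il4ra, a receptor chain for interleukin 4 and 13, had 41.3 and 43.5 against 104 and 103 CPM (1.29 ± 0.25, adjusted p = 0.0243, restricted fit 1.02, adjusted p = 0.0447). Lcn2, an acute phase iron carrier, had 6.73 and 7.12 against 96.2 and 40.8 CPM (3.36 ± 0.56, adjusted p = 0.0124). Of its caerulein UMIs, 37.9% lay in a sub-cluster with lymphatic genes and 50% in those with macrophage, acinar, stellate or pericyte genes, and its difference turned to -0.54 when WT cells of a cluster named Lymph_nodes were added. The remaining members called were Lrg1, described above, and Saa3, with 86.1% and 92.9% of its caerulein UMIs in macrophage-rich cells.

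Of 11 fatty acid uptake genes, 2 were higher in the full fit, and of 10 in the restricted fit 1 was. Angptl4, an inhibitor of lipoprotein lipase, had 0.449 and 3.77 against 25.2 and 75.2 CPM (4.32 ± 0.85, adjusted p = 0.0253, restricted fit adjusted p = 0.0186), and Plin2, a lipid droplet coat gene, was higher in the full fit alone (1.87 ± 0.36, adjusted p = 0.0236, restricted fit 0.30, adjusted p = 0.72). Of the caerulein UMIs of Angptl4, 45.1% lay in sub-clusters with macrophage, acinar, stellate or pericyte genes. The sub-cluster with stellate genes held 27.5%. Without those sub-clusters Angptl4 was at 14.5 and 84.1 CPM in the caerulein mice. Of 13 genes linked to endothelial-to-mesenchymal transition, 4 were higher and 0 lower in the full fit, and 4 higher and 2 lower in the restricted fit. Without caerulein mouse 1 the full fit called 0 of them, and without macrophage-rich cells but with i4F mouse 3 it called 1. The higher genes of the restricted fit included Fn1, S100a4 and Vim, and the lower ones were the transition factors Snai1 (89.3 and 142 against 31.7 and 31.4 CPM, -1.67 ± 0.31, adjusted p = 0.0188) and Snai2 (-1.50 ± 0.37, adjusted p = 0.0475). S100a4 had 86.0% and 94.7% of its caerulein UMIs in macrophage-rich cells. Sub-clusters with macrophage, acinar, stellate or pericyte genes held 85.6% of the Fn1 UMIs, with 69.4% in the macrophage one, and 50.8% of the Vim UMIs. Immediate early genes, which rise within minutes of stress including tissue dissociation, had 0 of 14 called in the full fit and 4 lower in the restricted fit, among them Egr1 with 2603 and 1987 against 694 and 759 CPM (-1.53 ± 0.22, adjusted p = 0.00831). Of 9 heat shock and 14 glycolysis genes, 0 passed in either fit.

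Part of the G2/M genes were higher after caerulein. Of 15 G2/M genes, 10 passed the filter on low counts, some of them through groups where they were higher than in WT. Of these 10, 3 were higher in the full fit (median log2 fold change 4.31) and 7 in the restricted fit (median 4.14), and 0 were lower. In the full fit 0 were called when WT mouse 1, WT mouse 2, caerulein mouse 1 or caerulein mouse 2 was left out, 1 without i4F mouse 1 and 8 of 11 without i4F mouse 3, with medians from 3.66 to 4.61. With the library series as a term, with doublets removed or after RNA subtraction 0 were called as well. Top2a, the topoisomerase of dividing cells, had 1.35 and 2.09 against 30.8 and 50.2 CPM (full fit adjusted p = 0.0403, restricted fit adjusted p = 0.00394). Birc5, which encodes survivin, had 0.449 and 0.837 against 42.9 and 25.1 CPM (adjusted p = 0.0416). Ube2c, a ubiquitin carrier of mitotic exit, was at 0 CPM in both WT mice and at 64.4 and 25.1 CPM in caerulein mice (adjusted p = 0.0335), at least 85.2-fold higher against a floor of 3 UMIs over the WT mice. With Ube2c at this bound the list's medians were again 4.31 and 4.14. Hmgb2 and Cenpa, of the same list, were at similar levels in both groups, Hmgb2 at 104 and 77.9 against 119 and 65.8 CPM (adjusted p = 0.942). Without the sub-clusters of macrophage, acinar, stellate and pericyte genes, Ube2c was at 62.6 and 8.86 CPM in the caerulein mice, and Cenpf, Ccnb2, Cdc20 and Ccna2 were at 0 in mouse 2. Top2a was then at 22.5 and 17.7 CPM and Birc5 at 19.3 and 13.3 CPM. These values are not TMM-scaled, rest on few UMIs in mouse 2 and have no WT counterpart, since WT cells were not clustered with them. Of 9 S phase genes, 0 passed in the full fit, and in the restricted fit the list's median was -0.05 and Tyms was higher in the restricted fit (1.06 ± 0.26, adjusted p = 0.0474).

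Counted per cell, G2/M-positive cells were those with at least 2 UMIs over the list after each cell was thinned to 1000 UMIs, and 651, 420, 210 and 158 cells of the 2 WT and 2 caerulein mice had fewer UMIs and were left out. The share was 1.70% (8 of 471) and 0.884% (7 of 792) in WT and 5.43% (19 of 350) and 5.93% (7 of 118) in caerulein mice, a difference of 4.39 percentage points (exact two-sided permutation p = 0.333). With at least 1 UMI in place of 2, the difference turned to -0.240 points. Without thinning the share was 5.97% and 3.88% against 6.61% and 3.62%, and the groups overlapped. The G2/M UMIs of the caerulein cells were not spread evenly: of 613, 33.8% lay in the sub-cluster with venous genes, 32.1% in the 17 cells with stellate genes and 20.6% in the sub-cluster with macrophage genes described next. The part of stellate or macrophage RNA in the increase was not tested beyond these values, and without macrophage-rich cells the difference in shares was 3.13 points.

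The 836 cells were clustered again to see which vessels they came from, as a description with no test. Sub-cluster 1 held 275 cells (31.1% and 36.6% of each mouse's endothelial cells), had the fewest UMIs (median 582) and was led by the neutrophil genes S100a9 and S100a8. Its summed endothelial and capillary markers were nevertheless 5937 and 18400 CPM, against 821 CPM for neutrophil markers. Sub-cluster 2 held 264 cells (29.8% and 35.1%) with Stmn2, Btnl9, Sema3g, Gja4 and Esm1 as leading genes beside the highest summed capillary markers, 20101 CPM. Sub-cluster 3 held 112 cells (14.3% and 11.6%), was led by Ackr1, Selp, Vcam1, Vwf and Sele, and was called venous-like. It held 45.5% of the Lrg1 UMIs and 50.6% of the Ube2c UMIs. Sub-cluster 6 held 25 cells (2.86% and 3.26%) with Ccl21a, Lyve1, Mmrn1, Reln and Flt4 in the lead, and was called lymphatic-like.

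Sub-clusters 4, 5, 7 and 8 were led by genes of other cell types. Sub-cluster 4 held 104 cells (15.4% and 6.52%), of which 100 were macrophage-rich and 54 were marked by Scrublet, and was led by complement and macrophage genes. Sub-cluster 7 held 17 cells with a median of 6534 UMIs, of which Scrublet marked 15, and was led by collagen genes of stellate cells. Sub-cluster 8 held 28 cells with the pericyte genes Rgs5, Ndufa4l2 and Pdgfrb, and sub-cluster 5 held 11 cells with acinar and ductal genes. Together, sub-clusters 4, 5, 7 and 8 held 43.7% of the UMIs of the 836 cells, and sub-cluster 1, with neutrophil genes beside high endothelial sums, held 12.6%. The share of a mouse's endothelial cells in the venous-like and lymphatic-like sub-clusters was similar in both mice, and no WT share stands beside it because WT cells were not clustered with them.

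**Figure D5:**
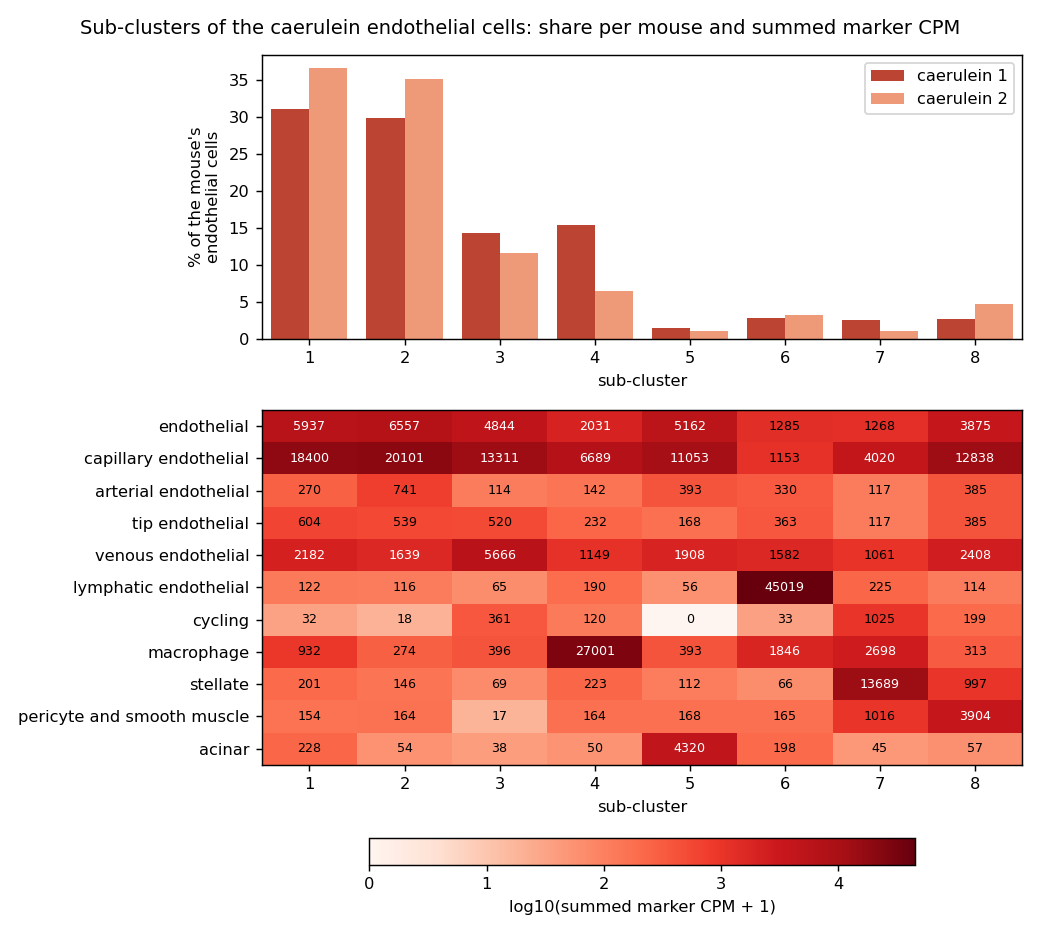
The upper panel gives the percentage of each caerulein mouse's endothelial cells in each of 8 sub-clusters, and the lower panel the summed CPM of the marker lists named at the left in each sub-cluster, coloured by log10 of the sum plus 1 with the sums printed. Sub-cluster 6 stands out for lymphatic markers, 4 for macrophage markers at 27001 CPM, 7 for stellate markers at 13689 CPM, and 3 has the highest venous sum, 5666 CPM.

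Lymphatic genes were among the largest increases, and they depended on how the clusters had been named. Lyve1, a hyaluronan receptor of lymphatic capillaries, had 1.35 and 3.35 against 145 and 144 CPM (log2 fold change 5.86 ± 0.44, adjusted p = 0.00124). Ccl21a, the chemokine that guides dendritic cells into lymphatics, had 8.08 and 22.6 against 862 and 498 CPM (5.46 ± 0.86, adjusted p = 0.00926). Mmrn1 and Reln were at 0 CPM in both WT mice and at 23.3 and 28.2, and 19.6 and 18.8 CPM in caerulein mice, at least 37.6-fold and 29.9-fold higher against the floor of 3 UMIs. Sub-cluster 6 held 100% of the Ccl21a, Reln and Mmrn1 UMIs and 84.6% of those of Lyve1. In the WT table the authors had a separate cluster named Lymph_nodes, of 38 and 50 cells, which the rule for WT reference cells leaves out. With these cells added to the WT endothelium, the differences of Lyve1 and Ccl21a turned to -1.13 and -1.78 (adjusted p = 0.0644 and 0.176). That of Lcn2 turned to -0.54, that of Nts from 5.65 to -0.75, and that of Reln to -1.23 (adjusted p = 0.073). Fgl2 turned from 2.71 to -1.66 and was then called lower (adjusted p = 0.0168). Pdpn went from 5.19 to 0.85 (adjusted p = 0.339). Of its caerulein UMIs, however, 8.86% lay in sub-cluster 6, 60.8% in sub-cluster 4 and 89.9% in sub-clusters 4, 5, 7 and 8 together. Mmrn1 was still called higher (7.83, adjusted p = 0.014). A gene not listed for a condition was read as 0, and whether Mmrn1 was listed for WT was not tested. The increases of Lyve1, Ccl21a and Reln thus held for the endothelial clusters as the authors named them and not for endothelium with the Lymph_nodes cells included.

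The largest increases of the full fit were genes of macrophages and neutrophils. Of the 10 named by size (Ms4a6d, Aif1, S100a9, Wfdc17, Ccl6, Ms4a7, Arg1, Trem2, Ctss and Syngr1), 9 had at least 90% of their caerulein UMIs in macrophage-rich cells. The exception was S100a9, a neutrophil alarmin gene, with 9.38% and 6.25% there. It was at 0 CPM in both WT mice and at 89.6 and 50.2 CPM in caerulein mice, at least 124-fold higher against the floor. In the restricted fit the largest increases again included S100a9, and also Timp1 and Col1a1, of whose caerulein UMIs 74.0% and 84.0% lay in the 17 cells with stellate genes, Gm2663 and Scgb3a1. Scgb3a1, a secretoglobin, had 6.73 and 7.12 against 166 and 150 CPM (4.50 ± 0.86, adjusted p = 0.0225, restricted fit 4.67, adjusted p = 0.00278). The largest falls of the restricted fit were mostly acinar genes such as Amy2a5, Ctrc, Gp2 and Serpini2, beside the acinar marker sums given above.

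To see how far the response was shared with other tissue cells, the change in endothelial cells was compared with that in stellate cells, the pancreatic fibroblast lineage, of the same mice. The stellate class was not cut alike in the groups, since the caerulein table names a smooth muscle cluster of 114 and 54 cells and the WT table has 0 and 0 cells under such a name. Of 13784 genes tested, 698 (5.06%) changed more positively in endothelial cells and 357 (2.59%) more negatively, and without macrophage-rich cells 500 (3.67%) and 516 (3.79%) of 13606 did, with a median difference over all genes of 0.07 and -0.11. Of the 18 interferon-stimulated genes, 8 were more negative in endothelial cells and 0 more positive, with and without macrophage-rich cells. The median difference of this list was -1.16. The cell division lists were farther from 0, with medians of -3.11 for 15 G2/M genes and -1.94 for 12 S phase genes. Of these, 6 and 5 were more negative in endothelial cells and 0 more positive. Isg15 was at 121 and 105 CPM in WT and 84.1 and 136 CPM in caerulein stellate cells, and its change differed by -1.97 on the log2 scale (adjusted p = 0.0134). For Isg15, stellate cells thus showed overlapping levels in the groups where endothelial cells did not. This is 1 gene, and 10 of the 18 members were not called. The list's median difference of -1.16 stands beside a median change of -2.23 in endothelial cells. MHC class I and peptide loading genes had a median difference of -0.16, with 4 of 14 more negative and 0 more positive.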

How the data were processed

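Single-cell RNA counts of 7 pancreata were used. The authors processed 10x Genomics libraries with Cell Ranger on the mm10 genome, analysed them in Seurat, kept cells with at least 150 genes and at most 5% of reads from mitochondria, and named the clusters. The methods name SoupX for ambient RNA, and whether it was applied before these counts is not stated. The values the authors deposited are raw UMI counts, 1 table per condition, and their metadata gives each cell's library and cluster name. All columns were matched to a sample. The counts listed 28166 genes for WT, 28764 for caerulein and 31676 for i4F mice. A gene not listed for a condition was read as 0.

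Members, gene lists and tests were chosen with earlier results of these data known. Cells of caerulein and WT clusters named endothelial were summed per mouse. The sums of the 7 mice (315054 to 2461759 UMIs) were tested in 1 fit of 3 groups with the quasi-likelihood test of edgeR 4.0.16 (filterByExpr, TMM, two-sided, Benjamini-Hochberg over all genes tested, adjusted p under 0.05), and the difference from stellate cells in 14 sums with the mouse as a block. CPM are TMM-scaled. Mice numbered in the titles were taken as separate animals. Shares were compared by exact permutation tests. Scrublet (scanpy 1.11.5) served as doublet caller. It marked 2 of 4327 cells of WT mouse 1 and 0 cells of i4F mouse 3, so that it had not worked there, and doublets were removed in an alternative only. The 836 cells were clustered with Leiden (2000 variable genes, 20 principal components, resolution 0.5). Among all pairs of libraries, 3 to 39 cell barcodes were shared, and 1 of them belonged to endothelial cells of caerulein mouse 1 and i4F mouse 2 and 1 to those of i4F mice 2 and 3. Library totals were 15469018 to 64784216 UMIs.

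Named genes were the members of 26 lists past the threshold, up to 10 per direction with the largest changes among called genes whose mean reached 5 log2 CPM and without overlap between the groups, up to 5 per direction for the difference from stellate cells, and markers. Other genes named for context did not pass or were chosen after their values were seen. Some genes are not reported here. The steps were tested on simulated data. Alternatives were DESeq2 1.42.0, other scaling, no low-count filter, other sets of mice and cells, and replicate blocks.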

Additional observations from a re-analysis of the deposited data

Results flagged for a closer look

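17 genes were set apart because their change after caerulein differed between endothelial and stellate cells in the test of that difference (edgeR quasi-likelihood test, mouse as a block, Benjamini-Hochberg adjusted p under 0.05). Values are differences of log2 fold changes, endothelial minus stellate, and each was named by the size rule or as a member of the interferon-stimulated list.

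A more positive difference in endothelial than in stellate cells was found for Lyve1 (5.82), Pcp4l1 (6.70), Vwa1 (6.11), Rgs5 (5.99) and Gja4 (5.81). Pcp4l1 went in stellate cells from 48.9 and 38 CPM in WT to 0.143 and 0.133 CPM in caerulein mice. Gja4 and Rgs5 had overlapping groups in endothelial cells, and in stellate cells Gja4 went from 38 and 29.9 to 0.43 and 0.666 CPM and Rgs5 from 354 and 176 to 4.37 and 2.8 CPM. The caerulein table names a separate smooth muscle cluster (114 and 54 cells) and the WT table does not, so that a change in stellate cells and a different cut of the class cannot be told apart for these genes. Rgs5 is a pericyte gene and led the sub-cluster of 28 cells with pericyte genes. The difference of Lyve1 turned to -1.15 when the Lymph_nodes cells were added.

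More negative in endothelial cells were Stmn1 (-5.07), Stmn2 (-4.14), Sema7a (-3.81), Ier3 (-3.25) and Ahr (-3.18). Stmn1, a microtubule regulator of dividing cells, was at 22.3 and 9.53 CPM in WT and 345 and 349 CPM in caerulein stellate cells. Ahr encodes the aryl hydrocarbon receptor.

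Interferon-stimulated genes with a more negative change in endothelial cells included Rsad2 (-1.98), Isg15 (-1.97), Iigp1 (-1.87), Gbp3 (-1.60), Ifit3 (-1.59), Oasl2 (-1.13) and Irf7 (-1.05). The median difference of all 13784 genes tested was 0.07. Without the mouse block the test called 107 and 24 genes in place of 698 and 357.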

How the results depend on the processing

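Of 51 genes that met the naming rule and were called in the full fit, 51 kept direction and call with WT and caerulein mice alone, 50 under DESeq2, 38 with doublets removed, 40 in the restricted fit, 3 with macrophage-rich cells left out, and 4 without caerulein mouse 1. The counts of genes higher and lower after caerulein, 289 and 46, moved as follows. Without a low-count filter they were 765 and 447, with WT and caerulein mice only 528 and 289, with library series as a term 101 and 8, in the AM series only 535 and 353, with doublets removed 144 and 24, and with an endothelial marker UMI and no Ptprc UMI required 188 and 28. Lower genes numbered 77 under DESeq2 and 106 with library size scaling, under which 72.5% of calls were higher in place of 86.3%, with the median of all genes at -0.11. Leaving out single mice gave 23 to 582 higher and 0 to 363 lower genes, with 23 and 0 (453 and 326 at an unadjusted p under 0.05) without caerulein mouse 1, 582 and 363 without i4F mouse 3, 97 and 9 without WT mouse 1, 208 and 17 without WT mouse 2, and 212 and 6 without caerulein mouse 2. Of alternatives chosen after seeing the data, leaving out cells with 2 or more macrophage UMIs gave 4 and 0 by edgeR (601 and 426 at an unadjusted p under 0.05), leaving out macrophage-rich cells 5 and 0, the same with WT and caerulein mice only 124 and 115, the restricted fit 235 lower genes, leaving out the WT cluster Endothelial_2 75 lower genes, and subtraction of macrophage, stellate and acinar RNA 20 and 5.

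For the difference from stellate cells, 698 and 357 became 444 larger under DESeq2, 553 smaller without a filter, 107 and 24 with no replicate block, 1273 and 1427 with WT and caerulein mice only, 280 and 96 with library series as a term, and 451 and 538 after subtraction. Leaving out single mice gave 70 to 1202 and 87 to 1373. The replicate numbers were not taken to pair the mice. The correlation of deviations was -0.292 for same-numbered WT and caerulein mice. With 2 mice per group this value is the same for both pairs by construction and cannot decide pairing. A replicate block gave 404 higher and 235 lower genes, with all 51 of the named calls kept. A crossed block, added later, gave 600 and 358.

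With 1 or more UMIs the G2/M-positive share turned to -0.240 points, and without thinning the difference was 0.190. Leaving out single mice gave 3.98 to 4.80 points for it, -22.1 to -15.3 points for the endothelial share of all cells and -19.4 to -13.8 of non-immune cells. With the Lymph_nodes cluster added, Ccl21a turned to -1.78, Lcn2 to -0.54, Lyve1 to -1.13, Reln to -1.23, and the difference of Lyve1 to -1.15. Ftl1 turned to -0.10 and -0.12 without macrophage-rich cells and in the restricted fit. The cause of these changes was not tested. Depth limits genes under about 10 CPM in caerulein mouse 2, whose endothelial sum was 315054 UMIs.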

Other observations

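Cdkn1a, the p53 target gene for the cell cycle inhibitor p21, had 1686 and 2199 CPM in WT and 894 and 846 CPM in caerulein endothelial cells. It did not pass in the full fit (adjusted p = 0.251) and was lower in the restricted fit (log2 fold change -1.31, adjusted p = 0.0152), as 1 of 8 genes of the p53 and stress list tested there.

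Letters of inflammatory factors were searched in the chemokine promoters. The letters GGG, any 5 bases and CC, like a kappa B element, were found for 7 of 11 chemokine list members with a promoter (63.6%) and for 73.3% of tested genes. The letters TGANTCA, like an AP-1 element, were found for 4 of 11 (36.4%) and for 6.14% of tested genes.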
